A study of Mus musculus with 6 samples.

Results

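The network of the Pax, sine oculis homeobox (Six2 and Six4), Eya and Dach genes, with Sall1, was followed in the sensory epithelia of the newborn mouse ear, as all probe sets annotated to exactly 1 of the genes Pax2, Pax8, Six2, Six4, Eya1, Eya4, Dach1, Dach2 and Sall1. These came to 21 of the 45037 probe sets on the array, controls aside, and named 8 of the 9 genes, out of 18193 genes named in all. No probe set was named for Pax2 alone in the annotation used here, so Pax2 is not analysed here. The tissues were vestibular sensory epithelia, from the utricle, saccule and the anterior and lateral cristae, and cochlear sensory epithelia, both of C3H mice of wild type genotype, taken at postnatal day 2 and read on 3 Affymetrix arrays each. Each pool held epithelia of 10 to 12 inner ears, dissected with the mesenchyme beneath them and attached neurons, so that every array read a mixture of cells. The labels describe the replicates of each tissue as biological. The sources used here do not say which animals went into which array, so each p-value measures only the spread between these samples, which may be in part technical.

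Pax proteins bind DNA through a paired domain, and Pax2 and Pax8 are among the earliest genes of the otic placode, the thickened ectoderm from which the inner ear forms. Proteins of the sine oculis homeobox family, such as Six2 and Six4, are homeodomain transcription factors. Eya proteins bind no DNA themselves and act as coactivators of these homeodomain proteins and as phosphatases, while Dach proteins join such complexes as cofactors that often repress. Loss of Eya1 stops the mouse ear at the otic vesicle stage, and human mutations in EYA1, EYA4 and SALL1 cause hearing loss, the EYA1 and SALL1 forms as part of syndromes.

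Levels are log2 values as computed by the authors with the robust multiarray average (RMA) method and deposited with 1 decimal, and a difference is the mean of the vestibular arrays minus that of the cochlear arrays on this scale, with its standard error (SE) or confidence interval (CI). The test was that of limma, fitted over all tested probe sets at once. Calls needed both a p below 0.1 after Benjamini-Hochberg adjustment and a minimum fold of 1.3, which is 0.38 on the log2 scale. The probe sets with the highest mean level were tested, as many as the paper kept, which set a lowest mean of 4.68. Of the 21 probe sets 16 passed this filter, and 5 did not. Among the 16, 5 were called, against 19.4% of all tested probe sets. In the vestibule 2 were higher and 3 lower, where 12.0% and 7.37% of all tested probe sets were. Without vestibule replicate 1 these counts were 1 and 3, on 2338 and 1430 of all tested probe sets in place of 3563 and 2184. Without cochlea replicate 2 they were 3 and 5, on 3912 and 2783 of all tested probe sets. By the brightest probe set of each gene, Dach2 rose in the vestibule and Eya1 and Sall1 fell, so that 3 of the 7 tested genes were called, against 23.1% of all tested genes. The median difference of the 7 genes was -0.13, against 0.03 for all tested genes. The arrays of the 2 tissues did not overlap for 7 of the 16 probe sets, against 27.4% of all tested probe sets. No test was made of these shares, which rest on few genes.

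**Figure D1:**
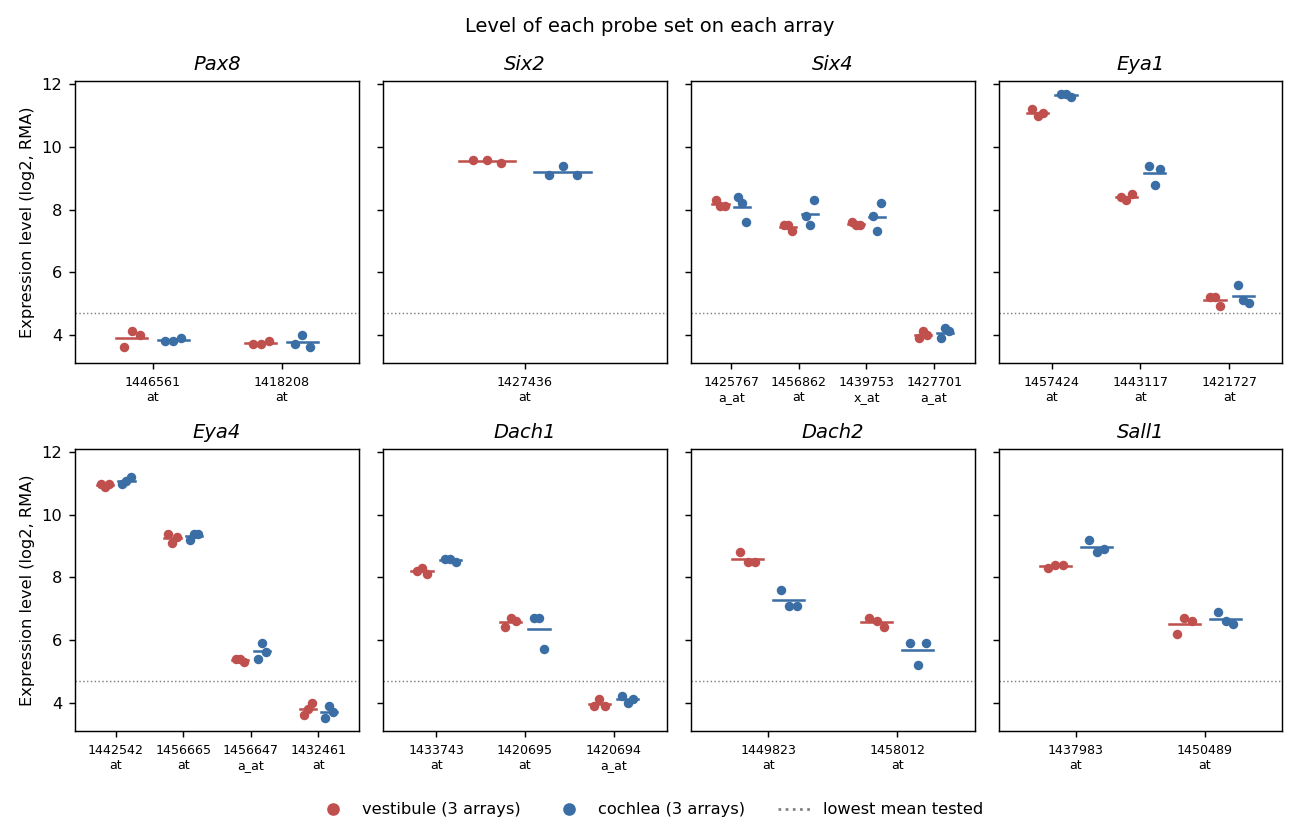
Log2 expression level (vertical axis) of all 21 probe sets of the 8 genes, 1 point for each of the 3 vestibular (red) and 3 cochlear (blue) arrays, with bars at the means. The dotted line marks 4.68, the lowest mean level that was tested. Both probe sets of Dach2 stand higher in the vestibule, while the brightest probe sets of Eya1 and Sall1 stand higher in the cochlea.

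Of the tissue markers, 5 of 5 vestibular marker genes (among them Hmx2 and Otop1) were called higher in the vestibule. Of the cochlear marker genes, 5 of 6 (among them Gata3 and Epyc) were called lower there. The other cochlear marker, Otoa, read 10.60 in the vestibule and 10.73 in the cochlea. The marker lists were chosen with results of these arrays known, so these counts are no independent check of the tissues. Otop1, Hmx3 and Dlx5 had cochlear means of 3.9, 4.67 and 4.67, under the lowest tested mean of 4.68. They passed the filter through their vestibular levels. Markers of the cell types that such epithelia can hold also differed. Of 10 neuron markers 9 were called lower in the vestibule, with a summed linear level of 3575 to 3946 on the vestibular arrays and 6821 to 7842 on the cochlear arrays. The neuron sums rest largely on Isl1, with means of 10.33 in the vestibule and 11.70 in the cochlea, and on Nefl, with 10.23 and 10.77. Of 9 measured hair cell markers 6 were called higher in the vestibule (6509 to 7685 on the vestibular and 2656 to 3255 on the cochlear arrays), as were 5 of 6 markers of endolymph secreting epithelium (13237 to 17970, against 11052 to 12275). The endolymph sums rest largely on Slc12a2, which was not called at means of 13.20 in the vestibule and 13.33 in the cochlea. The median difference of the 6 endolymph markers was 2.22. Macrophage markers were called higher in the vestibule for 7 of 8 genes (5388 to 6546, against 1597 to 1856), melanocyte markers for 7 of 8 (2165 to 2532, against 801 to 1240) and mesenchyme markers for 6 of 12, with 1 lower (54253 to 59470, against 35890 to 49086). The called melanocyte marker Mlana had a cochlear mean of 4.67, under the lowest tested mean. It passed the filter through its vestibular mean of 6.60. Endothelial markers were called higher for 5 of 7 tested genes and lower for 1 (2480 to 2930, against 1218 to 1991). Supporting cell markers ran both ways, with 2 higher and 3 lower of 10 (11196 to 12785, against 11721 to 13601), as did Schwann cell markers, with 3 higher and 2 lower of 7 (21936 to 31795, against 14327 to 17150), and those of cartilage and bone, with 3 higher and 1 lower of 6 (21490 to 23697, against 18108 to 24494). Of 8 skeletal muscle markers 6 lay below the filter, Myog and Myod1 among them, and neither of the 2 tested was called (180 to 257, against 191 to 431). The part of these markers in the differences of the Eya, Dach and Sall1 genes was not tested, and in such mixtures fewer cells of a type and less RNA per cell cannot be told apart. The cochlear arrays differed more among themselves, with a correlation of 0.981 to 0.988, against 0.993 among the vestibular arrays.

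Pax8, the Pax gene that is switched on earliest in the otic placode, was at the low end of the scale in both tissues. Its brighter probe set read 3.6, 4.1 and 4.0 on the vestibular arrays and 3.8, 3.8 and 3.9 on the cochlear arrays, and the other read 3.7, 3.7 and 3.8 in the vestibule and 3.7, 4.0 and 3.6 in the cochlea. Both lay below the filter and under 4.3, the lower quartile of all values, and the tissues overlapped in both. Fitted without the filter, the differences were 0.07 (95% CI -0.26 to 0.39, adjusted p = 0.830 in limma) and -0.03 (-0.32 to 0.25, adjusted p = 0.893). A signal at this end of the scale gives no measure of how much transcript was present.

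Among the homeobox genes that encode the DNA binding partners of Eya proteins, Six2 was read by 1 probe set and Six4 by 4. Six2 is best known for holding kidney progenitor cells undifferentiated. It read 9.6, 9.6 and 9.5 on the vestibular arrays and 9.1, 9.4 and 9.1 on the cochlear arrays, so that the tissues did not overlap and the nearest arrays were 0.1 apart, the step of the deposited values. The difference was 0.37 (SE 0.12, 95% CI 0.08 to 0.65, adjusted p = 0.0848 in limma), a fold of 1.29. It passed the adjusted p but not the minimum fold, and was not called. Without cochlea replicate 2, the highest of the cochlear arrays for Six2, the difference was 0.47 (adjusted p = 0.0250) and past both thresholds, while without any other single array it stayed uncalled, at an adjusted p of 0.163 to 0.229.

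Six4, a homeobox gene active in sensory placodes, did not pass the test at any of the 3 probe sets that were tested, and they did not run the same way. The brightest read 8.3, 8.1 and 8.1 in the vestibule and 8.4, 8.2 and 7.6 in the cochlea, a difference of 0.10 (95% CI -0.35 to 0.55, adjusted p = 0.782 in limma). The next read 7.5, 7.5 and 7.3 in the vestibule and 7.8, 7.5 and 8.3 in the cochlea, a difference of -0.43 (-0.87 to 0.01, adjusted p = 0.184). The spread lay in the cochlea, where replicate 3 was the lowest array for the brightest probe set and the highest for the next. A probe set with the suffix _x_at, which marks possible cross-hybridisation and was designed from the same sequence record as the second, followed it at 7.6, 7.5 and 7.5 in the vestibule and 7.8, 7.3 and 8.2 in the cochlea (difference -0.23, -0.70 to 0.23, adjusted p = 0.508). Without cochlea replicate 3 the brightest probe set stood at -0.13 and was still not called. Without cochlea replicate 2 the second and the _x_at probe set were called lower in the vestibule, at -0.62 and -0.47 (adjusted p = 0.0710 and 0.0822 in limma). The last Six4 probe set lay below the filter, at a mean of 4.0 in the vestibule and 4.07 in the cochlea.

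Eya1, which encodes the coactivator that the otic vesicle needs, fell in the vestibule. Its brightest probe set read 11.2, 11.0 and 11.1 on the vestibular arrays and 11.7, 11.7 and 11.6 on the cochlear arrays. No array of the vestibule reached the lowest of the cochlea, and the difference was -0.57 (SE 0.11, 95% CI -0.82 to -0.31, adjusted p = 0.00814 in limma), a fold of 1.48. A second probe set read 8.4, 8.3 and 8.5 in the vestibule and 9.4, 8.8 and 9.3 in the cochlea, a difference of -0.77 (SE 0.17, adjusted p = 0.0138 in limma) and a fold of 1.70. The tissues again lay apart, with cochlea replicate 2 nearest to the vestibule. The third probe set, at 5.2, 5.2 and 4.9 in the vestibule and 5.6, 5.1 and 5.0 in the cochlea, overlapped between the tissues (difference -0.13, -0.53 to 0.27, adjusted p = 0.670). The calls of both brighter probe sets were kept when each array was left out in turn, in 6 of 6 fits, with differences of -0.62 to -0.52 and of -0.95 to -0.65.

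Eya4, whose human counterpart underlies a dominant late-onset deafness, had no probe set past the test. The brightest read 11.0, 10.9 and 11.0 in the vestibule and 11.0, 11.1 and 11.2 in the cochlea, a difference of -0.13 (95% CI -0.39 to 0.12, adjusted p = 0.480 in limma). The second, at 9.4, 9.1 and 9.3 in the vestibule and 9.2, 9.4 and 9.4 in the cochlea, gave -0.07 (-0.35 to 0.22, adjusted p = 0.773), and the third gave -0.27 (-0.59 to 0.06, adjusted p = 0.268) around means of 5.37 in the vestibule and 5.63 in the cochlea. The intervals of the 2 brighter probe sets reach to a fold of about the minimum at the cochlear end, so that a difference near that size is not excluded for the brightest. The last probe set, at means of 3.80 in the vestibule and 3.70 in the cochlea, lay below the filter.

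**Figure D2:**
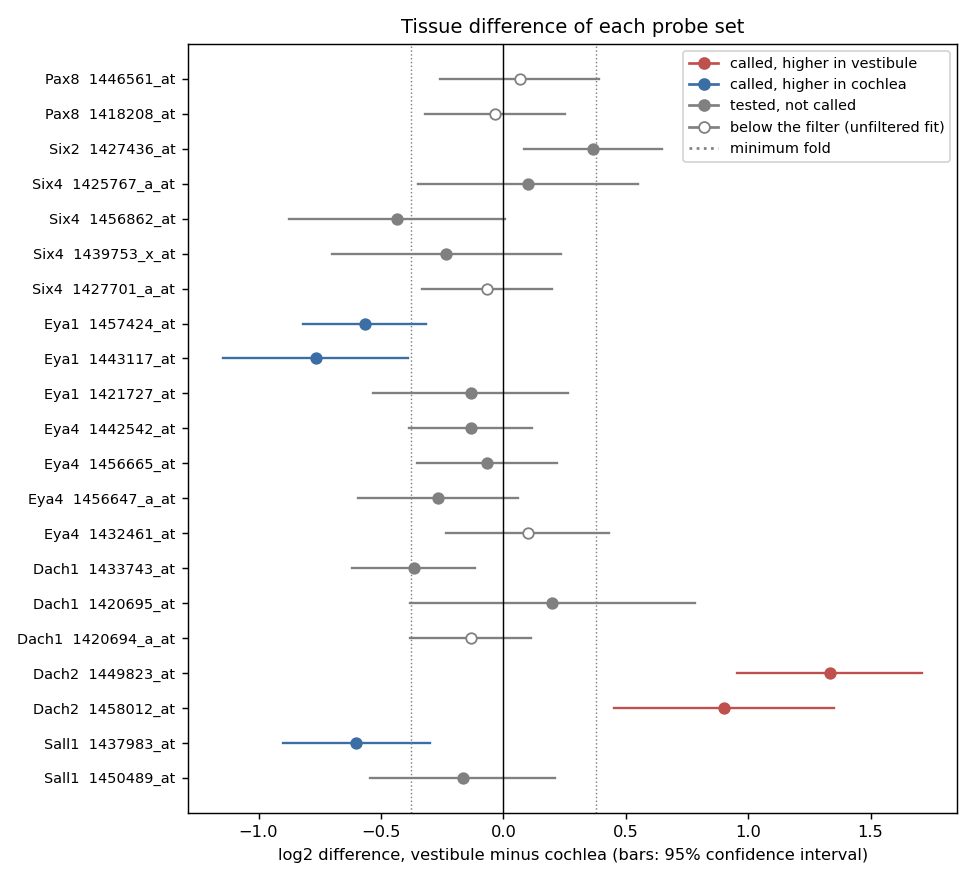
Log2 difference of vestibule minus cochlea (horizontal axis) for each probe set, with 95% confidence intervals of the limma fit, red where called higher in the vestibule, blue where called lower and grey where not called. Open points lay below the filter and come from the fit without it, and dotted lines mark the minimum fold of 1.3. Six2 and the brightest probe set of Dach1 lie just inside these lines.

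The Dach genes encode cofactors of Eya proteins and their homeodomain partners, and Dach2 carried the largest difference among the 8 genes. Its brighter probe set read 8.8, 8.5 and 8.5 on the vestibular arrays and 7.6, 7.1 and 7.1 on the cochlear arrays. The lowest vestibular array stood 0.9 above the highest cochlear array, and the difference was 1.33 (SE 0.17, 95% CI 0.95 to 1.71, adjusted p = 7.3e-04 in limma), a fold of 2.52. A second probe set read 6.7, 6.6 and 6.4 in the vestibule and 5.9, 5.2 and 5.9 in the cochlea, a difference of 0.90 (SE 0.20, adjusted p = 0.0146 in limma) and a fold of 1.87, again with no overlap. The call of the brighter probe set was kept in 6 of 6 fits that each left out 1 array, at 1.23 to 1.50, and that of the second in 5 of 6. Without vestibule replicate 1 the second stood at 0.83 with an adjusted p of 0.109. Of all tested genes 3.34% had a difference at least as large towards the vestibule as that of Dach2.

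Dach1, the paralogue of Dach2, had no probe set past both thresholds. Its brightest probe set read 8.2, 8.3 and 8.1 in the vestibule and 8.6, 8.6 and 8.5 in the cochlea. The tissues did not overlap, and the difference was -0.37 (SE 0.11, 95% CI -0.62 to -0.11, adjusted p = 0.0565 in limma), a fold of 1.29 that fell short of the minimum, so that it was not called. Without cochlea replicate 3 or vestibule replicate 2 it was called, at -0.40 (adjusted p = 0.0546) and -0.42 (0.0833). The call also depended on the scaling. It was gained after median centring (-0.40, adjusted p = 0.0515 in limma) and after a second quantile normalization (-0.45, 0.019). Array weights gave it as well (-0.39, 0.0305), and in all it was gained under 6 of 18 alternatives. A second probe set read 6.4, 6.7 and 6.6 in the vestibule and 6.7, 6.7 and 5.7 in the cochlea, where replicate 3 alone was low, and gave 0.20 (-0.38 to 0.78, adjusted p = 0.660). Without that array it stood at -0.13. The third probe set, with means of 3.97 in the vestibule and 4.10 in the cochlea, lay below the filter.

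Sall1 encodes a spalt zinc finger protein, most often a repressor, and fell in the vestibule. Its brighter probe set read 8.3, 8.4 and 8.4 on the vestibular arrays and 9.2, 8.8 and 8.9 on the cochlear arrays. All vestibular arrays lay below all cochlear arrays, and the difference was -0.60 (SE 0.13, 95% CI -0.90 to -0.30, adjusted p = 0.0147 in limma), a fold of 1.52. With each array left out in turn the call was kept in 6 of 6 fits, at -0.68 to -0.48. The adjusted p of these fits ran from 0.0206 to 0.0863 in limma, so some lay near the threshold. The mean of both probe sets gave -0.383 (adjusted p = 0.068 in limma), just past the minimum fold. The second probe set, at 6.2, 6.7 and 6.6 in the vestibule and 6.9, 6.6 and 6.5 in the cochlea, overlapped between the tissues and gave -0.17 (-0.55 to 0.21, adjusted p = 0.570). A difference at least as large towards the cochlea was found in 5.58% of all tested genes for Sall1 and in 5.99% for Eya1.

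The 250 bases before the annotated start were set side by side for Dach2, Sall1 and Dach1, since the brightest probe sets of the first pair were called in opposite directions and that of Dach1 lay just short of the call on the cochlear side. The sequences are those of RefSeq on GRCm38.p6, written 5′ to 3′ on the strand of the gene and taken at the most upstream start listed. Capitals mark matches, on either strand, to TCAGGTT (read by Six2 and its relatives), GCGTGAC (the core read by Pax2 and Pax8), AGATAA (the core read by Gata3 and its relatives), GGGCGG (the GC box), CCAAT (the box read by the factor NF-Y) or TATAAA (the TATA box). None of these 6 motifs contains another.
Dach2 (chrX:113297260-113297509, plus strand): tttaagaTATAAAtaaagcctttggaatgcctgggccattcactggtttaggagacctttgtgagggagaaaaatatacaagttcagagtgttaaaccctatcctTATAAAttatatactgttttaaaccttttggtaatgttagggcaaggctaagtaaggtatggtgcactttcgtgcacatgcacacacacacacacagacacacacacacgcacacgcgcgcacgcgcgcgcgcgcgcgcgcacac
Sall1 (chr8:89044163-89044412, minus strand): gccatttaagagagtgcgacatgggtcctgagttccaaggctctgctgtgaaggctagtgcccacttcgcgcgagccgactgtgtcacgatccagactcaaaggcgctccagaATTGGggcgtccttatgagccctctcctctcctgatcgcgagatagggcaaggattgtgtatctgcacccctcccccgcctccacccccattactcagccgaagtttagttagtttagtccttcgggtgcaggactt
Dach1 (chr14:98169766-98170015, minus strand): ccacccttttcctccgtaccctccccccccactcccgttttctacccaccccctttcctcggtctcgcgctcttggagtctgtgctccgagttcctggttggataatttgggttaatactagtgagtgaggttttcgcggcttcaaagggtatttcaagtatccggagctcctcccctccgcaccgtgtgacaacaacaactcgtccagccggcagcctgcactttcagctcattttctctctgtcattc
The Dach2 window held 2 matches to TATAAA, the Sall1 window 1 to CCAAT and the Dach1 window none of the 6. Over all 32851 windows of this length, 12.4% held TATAAA and 33.8% held CCAAT. The homeodomain core TCAGGTT stood in 3.49% of all windows and, among the 15 windows listed for 8 of the 9 genes, in 1, upstream of Six4. The Pax core GCGTGAC stood in 1.78% of all windows and in 0 of the 15. Six2 was the 1 gene with a GATA letter match, which 9.99% of all windows held. Guanine and cytosine made up 45.6% of the Dach2 window, 56.4% of that of Sall1 and 54.8% of that of Dach1, against a median of 52.4% over all windows. The other listed starts of the same genes differed from these windows. The second Dach2 window had 67.6% of guanine and cytosine, 1 GC box, 1 CCAAT and no TATAAA, and those of Sall1 had 74.4% and 78.4%, with 4 and 1 GC boxes and no CCAAT. The printed windows therefore show no contrast that holds over all starts of these genes. These letter matches were not tested for any relation with the levels, and no window was listed for Eya1.

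Whether the tissue difference of 1 paralogue differed from that of its partner was tested for 3 pairs with the levels of the 2 brightest probe sets subtracted within each array, which cancels the unequal brightness of the probes between tissues. Pax2 and Pax8 could not be compared. Dach1 minus Dach2 was -0.6, -0.2 and -0.4 on the vestibular arrays and 1.0, 1.5 and 1.4 on the cochlear arrays, with no overlap and a change of -1.70 (SD 0.20 in the vestibule and 0.26 in the cochlea, n = 3 each, exact two-sided permutation p = 0.1, adjusted over the 3 pairs p = 0.15). Eya1 minus Eya4 was 0.2, 0.1 and 0.1 in the vestibule and 0.7, 0.6 and 0.4 in the cochlea, again apart, with a change of -0.43 (SD 0.06 in the vestibule and 0.15 in the cochlea, exact two-sided permutation p = 0.1, adjusted p = 0.15). Six2 minus Six4 overlapped, at 1.3, 1.5 and 1.4 in the vestibule and 0.7, 1.2 and 1.5 in the cochlea, with a change of 0.27 (exact two-sided permutation p = 0.5, adjusted p = 0.5). This value moved to 0.05 without cochlea replicate 1 and 0.45 without cochlea replicate 3. With the mean of the probe sets of each gene it was 0.53 (exact two-sided permutation p = 0.1), and the tissues then did not overlap. With 3 arrays against 3 the smallest p this test allows is 0.1, so no pair could pass a threshold of 0.05.

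**Figure D3:**
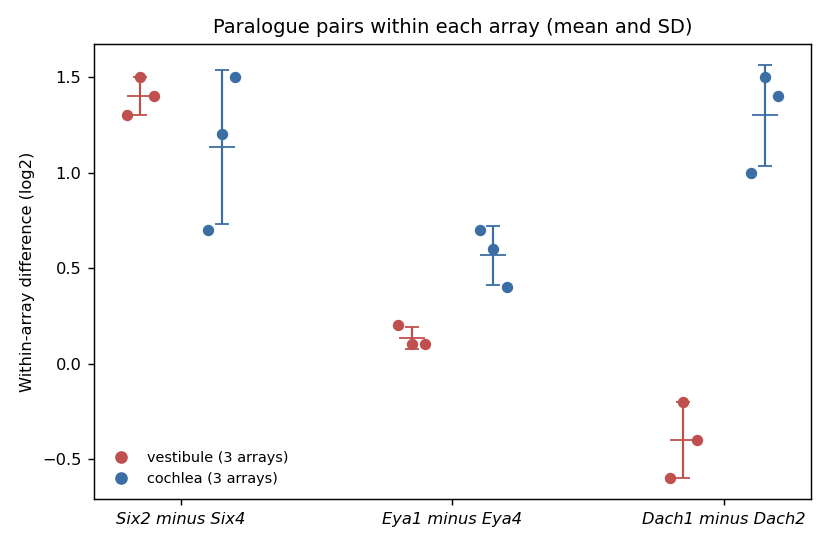
Within-array log2 difference between the brightest probe sets of 2 paralogues (vertical axis) on the 3 vestibular (red) and 3 cochlear (blue) arrays, with mean and SD. The height of a pair depends on probe brightness and has no meaning by itself. The tissues lie apart for Dach1 minus Dach2 and for Eya1 minus Eya4 and overlap for Six2 minus Six4.

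Of 17 other genes of the Pax, sine oculis homeobox, Eya and Sall families and of the Dach relatives Ski and Skil, all with a probe set of their own, 14 were tested. Of these 1 was called lower in the vestibule, 0 were called higher and 13 were not called (median difference -0.02), where 7.97% and 15.1% of all tested genes were called lower and higher. At an unadjusted p under 0.05 in limma 1 gene was higher, and the count of 0 also stood at 1 in the fit with no minimum fold. The called gene was Sall3, a spalt paralogue of Sall1. Its brighter probe set read 7.9, 7.9 and 7.8 in the vestibule and 9.2, 9.4 and 9.3 in the cochlea, a difference of -1.43 (SE 0.11, adjusted p = 5.0e-05 in limma), and a second stood at -1.83 (SE 0.16, adjusted p = 1.0e-04). Both were larger than the difference of -0.60 of Sall1, a comparison that was not tested. Sall4 was at 0.37 (adjusted p = 0.0565 in limma), with a fold of 1.29 short of the minimum, on means of 5.10 in the vestibule and 4.73 in the cochlea close to the filter. Sall2 was not called at 0.30 (adjusted p = 0.450). Among the further Eya genes Eya3 stood at 0.00 on a level of 8.30 in both tissues, and Eya2 at 0.40 (adjusted p = 0.204). Six5 stood at -0.10 on levels of 7.43 in the vestibule and 7.53 in the cochlea. The tested Pax genes of the list, Pax1, Pax3, Pax4, Pax6 and Pax9, read means of 4.90 to 5.40 in both tissues at their brightest probe sets. These levels are close to the filter, and the other probe sets of Pax3, Pax6 and Pax9 lay below it. Pax5, Pax7 and Six6 lay below the filter.

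Among 24 other genes of the early otic vesicle and placode, of which 17 were tested, 7 were called higher in the vestibule and 4 lower, against 15.1% and 7.97% of all tested genes, and 6 were not called (median difference 0.27, against 0.03 for all tested genes). Those higher were led by the homeobox gene Hmx2 at 3.80 and its neighbour and relative Hmx3 at 1.50, followed by Dlx5 at 1.23, Tbx1 at 1.23, Otx2 at 0.87, the FGF feedback gene Spry1 at 0.80 and Sox9 at 0.57. Those lower were Gata3, the zinc finger gene that also marks the cochlea here, at -4.47, Irx3 at -2.07, Irx5 at -1.57 and Spry2 at -0.40. Hmx2, Hmx3, Dlx5 and Gata3 were also counted among the tissue markers above, so the 2 sets of counts are not separate observations. Which genes were called depended on the filter and the threshold. Without the filter Sox9 lost its call (adjusted p = 0.108 in limma), and Sox8 at 1.07 (adjusted p = 0.00996) and Gbx2 at 0.73 (adjusted p = 0.00812) were called higher. Sox8 and Gbx2 lay near the low end of the scale, with means over all arrays of 4.63 and 4.03. The adjusted p of Spry2 was 0.0550 and that of Sox9 0.0800 with the filter. Sox2, a gene of the prosensory domain, read 10.80 in the vestibule and 10.97 in the cochlea and was not called. The differences of Eya1 and Sall1, at -0.57 and -0.60, were thus smaller than those of Gata3, Irx3 and Irx5, and that of Dach2, at 1.33, stood between Hmx3 and Dlx5. Hmx3 and Dlx5 both read a cochlear mean of 4.67, under the filter, and Dach2 one of 7.27. The differences of Hmx3 and Dlx5 may therefore be cut short at the low end of the scale. These lists were drawn from textbook knowledge with results of these arrays known.

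**Figure D4:**
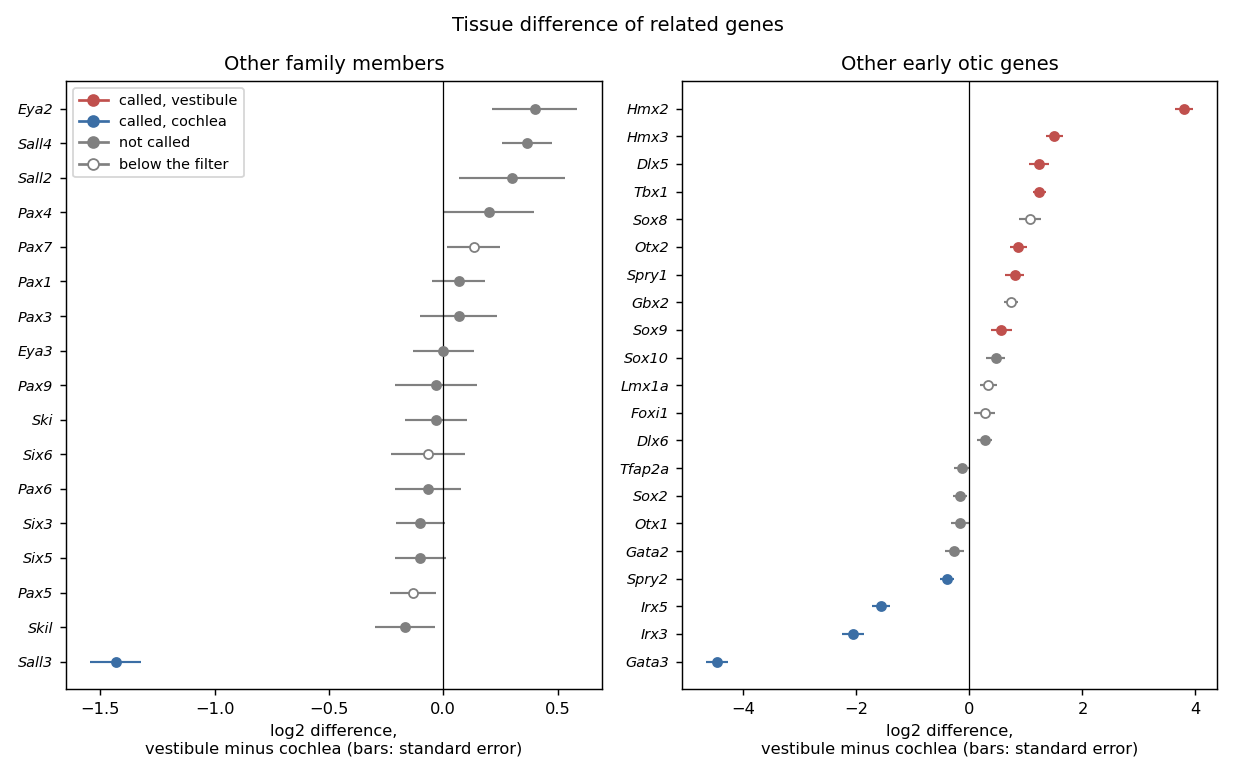
Log2 difference of vestibule minus cochlea (horizontal axis, bars show the standard error of the limma fit) for the brightest probe set of the other family members and of the other early otic genes. Red points were called higher in the vestibule, blue points lower, and grey points were not called and open points lay below the filter. Sall3 at -1.43 is the 1 called gene of the families.

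Over the 6 arrays, the levels most like those of Dach2 by Pearson correlation were those of the hypoxia factor gene Epas1 (r = 0.999, difference 1.80), the myelin protein gene Pmp2 (r = 0.998, 3.17) and the angiomotin gene Amot (r = 0.997, 0.30). Those most like Sall1 were the synaptic vesicle protein gene Sv2b (r = 0.998, difference -0.77), the calcium channel subunit gene Cacng4 (r = 0.994, -0.43) and Ddah2 (r = 0.993, -0.40). The arrays fall into 2 tissues, so many genes that differ between them correlate highly, and 718 and 144 genes passed an r of 0.95 with Dach2 and Sall1. These values describe only a linear likeness of log2 levels over the 6 arrays.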

How the data were processed

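RNA of vestibular and cochlear sensory epithelia was amplified by the authors and hybridised to Affymetrix mouse arrays, 3 per tissue. The deposited log2 values were computed by the authors with RMA and quantile normalization. The sources used here give no version of RMA, or of MAS5 for the Present calls. The log2 values run from 2.8 to 15, with array medians of 5.6 to 5.7, and were used as deposited. RMA with quantile normalization is meant to give all arrays the same distribution, so a difference is relative to the other transcripts. The deposited values did not hold to this fully. A second quantile normalization moved the probe sets called higher and lower in the vestibule from 3563 and 2184 to 3243 and 2850. Median centring moved them to 3154 and 2550. The shares of 12.0% and 7.37% given above therefore depend on the scaling. All arrays differed, with 12.0% to 21.4% of values equal at 1 decimal for each pair.

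The probe annotation named 1 gene for 34945 probe sets, several for 932 and none for 9160, with 64 control probe sets left out. Symbols were brought up to date by Entrez number for 34741 probe sets. Present calls need probe-level values, so the probe sets with the highest mean level were kept instead, in the number that the paper kept. Tests used lmFit and eBayes of limma 3.58.1, two-sided, in R 4.3.3 (with the data.table package, version 1.17.8), with Benjamini-Hochberg adjustment over all tested probe sets and the paper's thresholds. Which test the paper used on these arrays is not stated in it. A gene has the value of its probe set with the highest mean over all arrays. The fit was tested on simulated data. Plots were made in matplotlib 3.10.9 under Python 3.11.15 with numpy 2.4.6 and pandas 2.3.3.

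All probe sets of the 9 genes are given. Related genes are named from fixed lists, and the 3 genes most like a called gene by correlation. The genes and lists were chosen with earlier results of these data known. The number of arrays limits the precision. Alternatives changed the filter, the scaling, the variance model, array weights, the pairing, the thresholds, the probe sets used and the arrays left out.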

Additional observations from a re-analysis of the deposited data

How the results depend on the processing

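The alternatives for single genes used the brightest probe set, or the mean of the probe sets of a gene. On that basis the calls of Dach2, Eya1 and Sall1 kept their direction and their side of the threshold under all 18. The differences were 1.12 to 1.50, -0.63 to -0.49 and -0.71 to -0.38. The second Dach2 probe set lost its call without vestibule replicate 1 (adjusted p = 0.109 in limma). Those of Six2 and Dach1, which lay just short of the minimum fold, were gained under 3 and 6 of 18, and Dach1 averaged -0.08 over its tested probe sets. Six4 was called under none of 18 on that basis. Its sign turned with array weights (-0.06), with the mean of its probe sets (-0.19) and without cochlea replicate 3 (-0.13). Its second and its _x_at probe set were called lower in the vestibule without cochlea replicate 2. The probe sets called among the 21 numbered 5. They numbered 8 with array weights, which gave cochlea replicates 2 and 3 the lowest weights (0.500 and 0.415), and 4 to 8 when each array was left out, with 8 without cochlea replicate 2. The cause was not tested. Over all tested probe sets 5747 were called, 6549 with array weights, and 3768 to 6695 with each array left out. The lowest of these counts was without vestibule replicate 1 and the highest without cochlea replicate 2. The count of 0 other family members called higher in the vestibule was 1 with no minimum fold and after a second quantile normalization, and 0 to 1 with each array left out. With the mean of all probe sets the change of Dach1 minus Dach2 was -1.22. Random noise within the rounding (at most 0.05), chosen after seeing the data as were the alternatives for the lists, left 5 probe sets called.

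The tissues share replicate numbers, and the deviations of same-numbered arrays correlated at 0.217, 0.153 and -5.5e-04. These were not compared with differently numbered arrays, so they cannot decide whether the numbers pair the arrays. The main fit used no pairing. With the replicate number as a block 4682 probe sets were called in all and 5 among the 21. Dach2, Eya1 and Sall1 kept their calls, at higher adjusted p of 0.010, 0.0402 and 0.0809 in limma. The differences of the paralogue pairs were unchanged by construction (-1.70, -0.43 and 0.27).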
